A study of Mus musculus with 48 samples.

Results

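The 10 genes described here encode the proteins of the U1 small nuclear ribonucleoprotein (snRNP). They are the 3 genes for the proteins found only in U1, *Snrnp70* (U1-70K), *Snrpa* (U1A) and *Snrpc* (U1C), and the 7 genes of the Sm ring, *Snrpb* (SmB/B'), *Snrpd1*, *Snrpd2*, *Snrpd3*, *Snrpe*, *Snrpf* and *Snrpg*. They were picked by name through the GENCODE mouse annotation, by a rule that uses no measured value. The choice was made with earlier results of these data known. They are 10 of the 55335 genes in the deposited tables. All 10 passed the filter on low values in every fit.

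Gene levels were measured by RNA-seq in 28 libraries of mouse embryonic stem cells (mES cells), which form 14 groups of 2, and by ribosome profiling (Ribo-seq, sequencing of ribosome-protected fragments) in 2 groups of 2. The cells are of mixed 129-C57BL/6 background, carry a Cre recombinase fused to the estrogen receptor in the Rosa26 locus, and were grown with serum, LIF and 2i. The experiments removed or changed NRDE2, the RNA helicase MTREX or the splicing factor CCDC174 and asked what happened to splicing and to RNA levels.

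*Nrde2*-KO and *Mtrex*-KO cells are conditional knockout lines that received 100 nM 4-hydroxytamoxifen (4OHT), which switches on Cre, for 4 and 3 days. Their *Nrde2*-WT and *Mtrex*-WT controls are the same kind of line without 4OHT, so that loss of the gene and exposure to 4OHT cannot be told apart. *Nrde2*d200 cells lack the N-terminal 200 amino acids of NRDE2, and *Nrde2*-D174R cells carry the D174R substitution. Both are set against the same 2 *Nrde2*-WT libraries as the first *Nrde2*-KO pair. In the *Ccdc174* groups both arms carry a *Ccdc174*-FKBP12F36V fusion, and only *Ccdc174*-dTAG cells received dTAG-13, a degrader of that fusion, at 500 nM for 24 h. A second *Nrde2* experiment (WT and KO) and the *Ccdc174* groups were each also treated with cycloheximide (CHX), an inhibitor of translation that also blocks nonsense-mediated decay, at 0.1 mg/ml for 4 h. The Ribo-seq groups are *Nrde2*-WT and *Nrde2*-KO. Nothing in the sources used here says that the 2 libraries of a group came from separate cultures. The p-values therefore measure the spread between libraries of the same group, which may be technical. That spread is pooled over all groups of a fit, not only over the groups compared.

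The RNA-seq libraries held 28683644 to 36272309 reads in genes and the Ribo-seq libraries 3475051 to 5035940. The first *Mtrex*-KO library stood apart: its reads in genes made up 72.1% of the total behind its deposited values, a single gene took 12% of that total, and its scaling factor was 0.685 (82.7%, 7.35% and 0.833 in the second *Mtrex*-KO library). In all other RNA-seq libraries the top gene took 0.553 to 2.86%. The targeted genes moved with the labels for *Nrde2* (40.8 to 19.7 and 52.6 to 19.7 normalized CPM, reads scaled to the library total and then by a factor per library) and *Mtrex* (115 to 43.7). With CHX, *Nrde2* stood at 233 in the WT libraries and 253 in the libraries labelled *Nrde2*-KO, a difference of 0.12 on the log2 scale with an adjusted p of 0.12, so the gene-level count does not check those labels. The *Ccdc174* count checks nothing, because dTAG-13 acts on the protein. All 8 mES cell markers were detected in every library, with summed levels of 2850 to 6200 CPM, against at most 23.2 CPM for the primitive endoderm list, 22.8 for trophectoderm and 20.6 for fibroblasts or feeders.

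In the nucleus U1 finds the start of an intron by base pairing between the 5′ end of its RNA and the 5′ splice site. The Sm proteins form a ring around the Sm site of the U1, U2, U4 and U5 snRNAs, while the U1-specific proteins sit on the U1 RNA or on the ring, U1C close to the helix formed with the splice site. The ring is built in the cytoplasm by the SMN complex after PRMT5 has methylated SmB, SmD1 and SmD3, and it takes 1 copy of each of its members.

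The genes that make U1 are themselves spliced with its help. The first bases of U1 are shown with the run that pairs to a splice site in capitals, beside 5 of 45 annotated 5′ splice sites, those of 1 representative transcript for each of the 10 genes, with the last 3 exon bases and the first 6 intron bases in capitals. These are the 3 sites with the lowest scores, a site that pairs at every base, and a site in *Snrpd3* that shares its first intron letters with the weakest site.

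U1 RNA, Rnu1a1, chr11:87422867-87422886, plus strand: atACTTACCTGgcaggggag
Snrpe intron 1, chr1:133610149-133610178, minus strand: atggtgcagcccATCGTATCCtacgctgcg
Snrpc intron 5, chr17:27845258-27845287, plus strand: ctccccccagtcTCCGTAAGTttcaaacgt
Snrnp70 intron 4, chr7:45392064-45392093, minus strand: cagagctgaaaaTGTGTAAGGttctccctc
Snrpd3 intron 2, chr10:75519446-75519475, plus strand: aacatgaactgtCAGGTATCCtgcttggca
Snrpc intron 6, chr17:27848043-27848072, plus strand: tgcccgtgggacCAGGTAAGTcggaacgtg

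Positions are those of GRCm38 (mm10), and sequences are written 5′ to 3′ on the strand of the gene. The first 20 bases of *Rnu1a1* are the same in *Rnu1b1*, *Rnu1b2* and *Rnu1b6*. Each site was scored over its 9 capital bases as the sum of log2 ratios of base frequency to background over 202869 annotated sites that begin with GT, taken from all protein-coding transcripts. *Snrpe* intron 1 scored -2.24, at percentile 0.168 of those sites, and only 3 of its 9 bases can pair with U1. *Snrpc* intron 5 scored 3.86 (percentile 4.11, 6 bases paired) and *Snrnp70* intron 4 scored 3.94 (percentile 4.42, 5 bases paired). At the other end, *Snrpc* intron 6 pairs with U1 at all 9 bases and scored 12.91 (percentile 99.1).

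As a group the 45 sites lay near the middle of all sites. Their median score was 8.49 against 8.25 for all sites, 20 of 45 (44.4%) lay below the overall median and 3 (6.67%) below the 10th percentile. All 6 sites of *Snrpb* lay at or above the 50th percentile. *Snrpe* intron 1 and *Snrpd3* intron 2 (score 5.0, percentile 11.4) both start with GTATCC, as do 732 of the 202869 sites (0.361%). These letters also begin many introns of the minor, U12-dependent class, and no class was assigned here. The tables count reads per gene, so they do not show whether any of these introns was spliced.

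**Figure D1:**
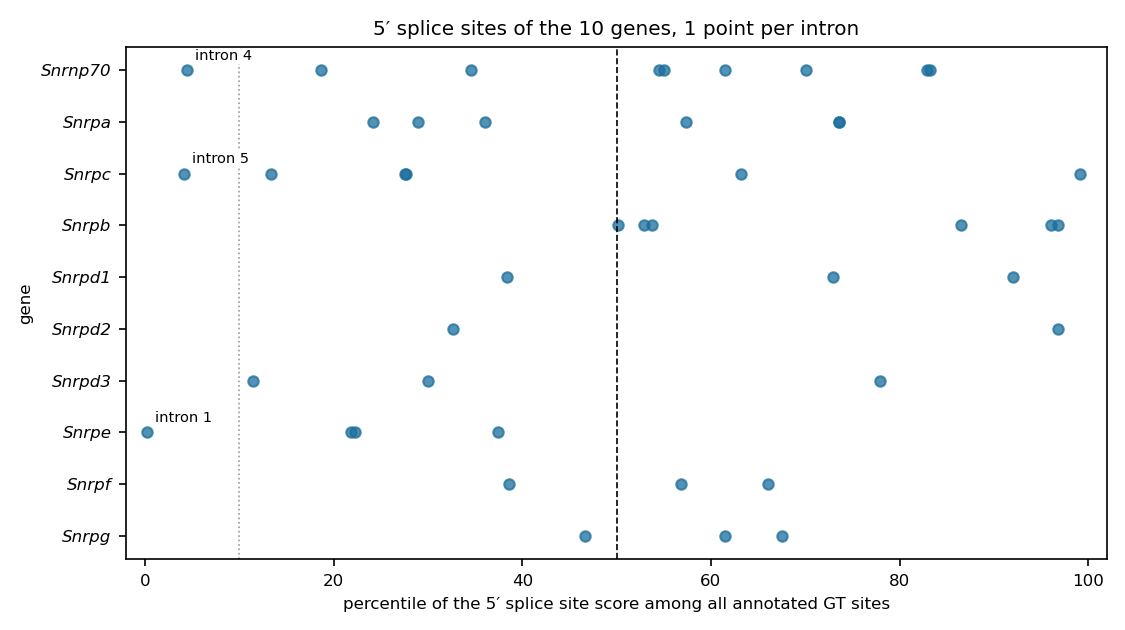
Percentile of the 5′ splice-site score (x axis) of each intron of 1 representative transcript for each of the 10 genes (y axis), among 202869 annotated sites with GT, with a dotted line at the 10th and a dashed line at the 50th percentile. Points are introns, and the 3 below the line belong to *Snrpe*, *Snrpc* and *Snrnp70*.

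Several members are hard to count. *Snrnp70* (chromosome 7, 45376453 to 45395742) and *Snrpd3* (chromosome 10, 75517551 to 75537381) share none of their 50-base transcript windows with another place in the genome, and *Snrpb* (chromosome 2, 130171414 to 130179403) only few (97.9% unique). The unique share fell to 80.2% for *Snrpd2* (chromosome 7, 19149722 to 19153542), 80.1% for *Snrpd1* (chromosome 18, 10617775 to 10642079), 76.2% for *Snrpf* (chromosome 10, 93583029 to 93589706) and 70.4% for *Snrpa* (chromosome 7, 27187005 to 27196271). It was 69.7% for *Snrpg* (chromosome 6, 86371304 to 86379328), 57.5% for *Snrpe* (chromosome 1, 133603871 to 133610291) and 43.2% for *Snrpc* (chromosome 17, 27838150 to 27851968). Only reads with 1 place in the genome were counted, so the levels of these genes are too low by an unknown amount. Uniquely placed RNA-seq reads on annotated copies elsewhere summed to 0.0434 to 0.339 CPM per gene, against 18.6 to 95.4 CPM for the members concerned. Reads from windows that a copy shares with its member were counted for neither, so these sums do not show how much RNA the copies make. Exons of *Snrpa*, *Snrpd3* and *Snrpf* overlap a gene on the other strand (*BC024978*, *Gucd1*, and *4933408J17Rik* and *Ccdc38*), and the counting used strand.

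Per length, the members differed widely in RNA level. In the first *Nrde2*-WT pair *Snrpb* had the highest level, 101 ± 7.48 normalized CPM per kb of exon (SD, n = 2), followed by *Snrpe* (67.1 ± 2.76), *Snrpd1* (53.8 ± 1.56), *Snrnp70* (38.5 ± 0.267) and *Snrpf* (28.1 ± 1.03). *Snrpd2* (20.8 ± 1.99), *Snrpd3* (20.6 ± 1.77), *Snrpg* (20.4 ± 2.93) and *Snrpa* (20.4 ± 0.401) did not differ beyond their spread. *Snrpc*, the gene of the protein next to the splice-site helix, was lowest at 3.94 ± 0.161. This order depends on the length used: per kb of the longest transcript *Snrpb* reached 171 and *Snrnp70* 169, *Snrpc* 25.4 and *Snrpd3* 23.3, and the ratio of the highest to the lowest member fell from 25.6 to 7.54.

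Over the 28 RNA-seq libraries the highest group mean of a gene was 1.77-fold (*Snrpc*) to 3.14-fold (*Snrpg*) above its lowest. *Snrnp70* ran from 131 to 411 normalized CPM with a median of 309, *Snrpb* from 145 to 295 with a median of 209, and *Snrpg* from 10.2 to 37.5 with a median of 27.9. The *Mtrex*-KO group was the lowest of the 14 for *Snrnp70*, *Snrpa*, *Snrpb*, *Snrpd1*, *Snrpd2*, *Snrpf* and *Snrpg*. In limma 27.4% of the 14889 genes tested were called lower in *Mtrex*-KO than in *Mtrex*-WT (adjusted p below 0.01). The share of all genes with *Mtrex*-KO as their lowest group was not counted. For *Snrpc*, *Snrpd3* and *Snrpe* the lowest group was a CHX-treated WT group. Highest were the WT group of the second *Nrde2* experiment for *Snrnp70*, *Snrpa*, *Snrpb*, *Snrpd1* and *Snrpd2*, *Ccdc174*-dTAG for *Snrpc*, *Snrpd3*, *Snrpf* and *Snrpg*, and the first *Nrde2*-WT group for *Snrpe*. WT groups of separate experiments also differed: *Snrnp70* stood at 295 and 292 in the first *Nrde2*-WT pair and at 410 and 401 in the second. Each comparison below therefore uses its own WT libraries. Statements that the libraries of 2 groups did not overlap, or lay above or below each other, describe the values given. The share of all genes for which this holds was not counted.

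**Figure D2:**
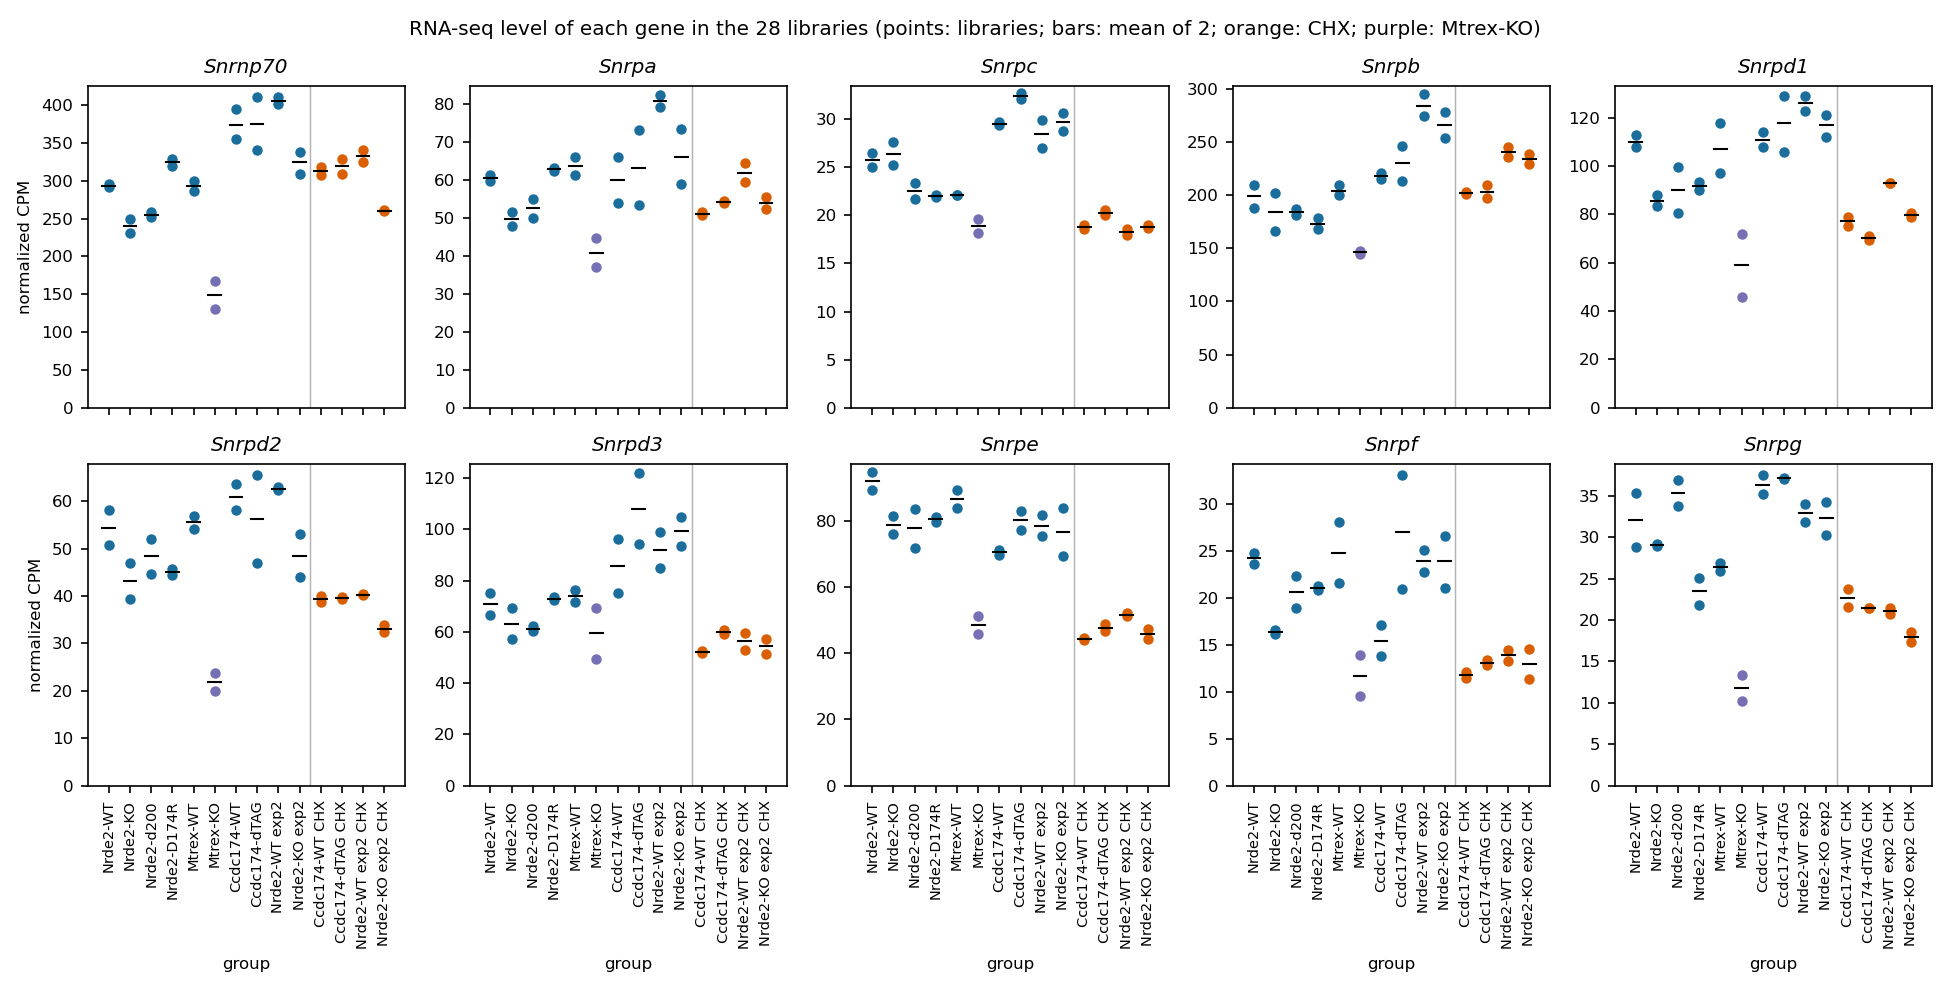
Normalized CPM (y axis, from 0) of the 10 genes in the 14 RNA-seq groups (x axis). Points are libraries, bars the mean of 2, orange marks CHX-treated groups and purple *Mtrex*-KO. *Mtrex*-KO is the lowest group for 7 genes, and the share over all genes was not counted.

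Most of the set was lower in *Mtrex*-KO cells. MTREX is the helicase that feeds nuclear RNA to the exosome. In *Mtrex*-KO cells 8 of the 10 genes fell (adjusted p below 0.01, limma with Benjamini-Hochberg adjustment) and none rose, with all 10 log2 fold changes below 0 and a median of -0.86. This comparison moved much of the transcriptome: 27.4% of the 14889 genes tested were called lower and 28.5% higher, with a median of 0. In bulk RNA, fewer cells of a type and less RNA per cell cannot be told apart.

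Of the U1-specific genes, *Snrnp70*, whose protein binds the first stem-loop of U1, stood at 299 and 286 normalized CPM in *Mtrex*-WT and at 131 and 167 in *Mtrex*-KO. Both knockout libraries lay far below both WT libraries, and the fall was 0.98 on the log2 scale (SE 0.11, 95% interval -1.21 to -0.76, adjusted p = 3.38e-07). *Snrpa*, whose protein binds the second stem-loop, went from 61.2 and 66.1 to 37 and 44.7, which is -0.64 on the log2 scale (SE 0.14, adjusted p = 0.000568). The groups did not overlap, but without the first *Mtrex*-KO library the value was -0.51 and the call was lost (adjusted p = 0.01). *Snrpc* differed least of the 10: 22.1 and 22.1 in *Mtrex*-WT and 18.2 and 19.6 in *Mtrex*-KO, a log2 fold change of -0.22 (adjusted p = 0.042).

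In the Sm ring the sizes differed widely. *Snrpd2*, whose protein pairs with SmD1, had the lowest ratio of all 10, with 54.2 and 56.8 normalized CPM in *Mtrex*-WT and 20 and 23.7 in *Mtrex*-KO (log2 fold change -1.34, SE 0.14, adjusted p = 2.75e-07). *Snrpg* went from 26.9 and 25.9 to 10.2 and 13.4 (-1.16, SE 0.13, adjusted p = 3.28e-07). *Snrpf* went from 21.6 and 28.1 to 9.54 and 13.9 (-1.08, SE 0.2, adjusted p = 0.000142). In these 3 genes both knockout libraries lay far below both WT libraries. They were the only members past the stricter rule of the study, which also asks for a change beyond 1 on the log2 scale (10.9% of all genes tested were lower by that rule).

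*Snrpd1* went from 97 and 118 to 46 and 71.8 (-0.89, SE 0.15, adjusted p = 7.06e-05) and *Snrpe* from 89.2 and 83.9 to 45.8 and 51.3 (-0.83, SE 0.1, adjusted p = 1.25e-06). Their knockout libraries again lay below both WT libraries. *Snrpb*, the most abundant Sm gene per length, changed least among those called, from 200 and 209 to 147 and 145 (-0.49, SE 0.1, adjusted p = 0.000268). *Snrpd3*, the partner of SmB in the ring, stood at 71.8 and 76.3 against 49.5 and 69.5 (-0.33, adjusted p = 0.0673), with the second knockout library close to WT.

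In a fit of the 4 *Mtrex* libraries alone 6 genes passed, with *Snrpb* (adjusted p = 0.011) and *Snrpd1* (adjusted p = 0.016) lost. The first *Mtrex*-KO library was the lower of the pair for 9 of the 10 genes, all but *Snrpb*. Without it 7 genes stayed past the threshold, and without the second 9 did, since *Snrpd3* then reached -0.58 (adjusted p = 0.0042). On CPM as deposited the median of all genes itself shifted by -0.38 and all 10 members passed, and with TMM factors the shift was -0.15 and 9 passed. The shares of all genes called in these alternative fits are not given here. Markers also moved: the 5 genes of the 2C-like list, a rare state of mES cell cultures, summed to 205 and 68.5 CPM in *Mtrex*-KO against 8.54 and 3.34 in *Mtrex*-WT, and the 8 mES cell markers to 4580 and 5450 against 6040 and 6200. Their part in the result was not tested.

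Gene length moved with the *Mtrex*-KO effect over all genes. Of the genes whose longest protein-coding transcript has at most 2003 bases, the shortest quartile, 38.3% of 3245 were called lower with a median log2 fold change of -0.26, while in the longest quartile 20% were, with a median of 0.21. Of the 10 members, 9 are in the shortest quartile and *Snrpd3* in the next. The part of length in the members' values was not tested.

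No member passed the test in *Nrde2*-KO cells without CHX. NRDE2 is a nuclear protein that binds MTREX, and the study asks how it acts on weak 5′ splice sites. In the first experiment 0 of the 10 genes passed in either direction (limma), where 10.6% of all genes tested were called lower and 7.64% higher. At an unadjusted p below 0.05, 5 genes differed, against 41.4% of all genes, and edgeR and DESeq2 also called 0. The median of the 10 log2 fold changes was -0.25.

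*Snrpf* had the lowest value. It stood at 23.6 and 24.8 normalized CPM in *Nrde2*-WT and at 16.1 and 16.6 in *Nrde2*-KO, a log2 fold change of -0.56 with a 95% interval of -0.98 to -0.13 (adjusted p = 0.0438). The libraries of each group lay close together and the groups did not overlap. *Snrnp70* stood at 295 and 292 against 249 and 231 (-0.29, adjusted p = 0.0479), and *Snrpd1* at 108 and 113 against 83.4 and 87.9 (-0.36, adjusted p = 0.0836). In the first experiment the 2C-like list summed to 25.3 and 16.2 CPM in KO against 2.11 and 1.65 in WT, and the mES cell markers to 4300 and 4620 against 5600 and 5840, and their part was not tested. The share of all genes called in a fit of these 4 libraries alone is not given here. In that fit *Snrpf*, *Snrnp70* and *Snrpd1* passed, with adjusted p of 0.00087 for *Snrpf*, 0.0052 for *Snrnp70* and 0.0017 for *Snrpd1*. The others ranged from -0.34 for *Snrpd2* (50.8 and 58.1 against 39.3 and 47) to 0.04 for *Snrpc* (26.5 and 25 against 27.6 and 25.2).

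The second *Nrde2* experiment gave 0 of 10 as well (limma, edgeR and DESeq2), with 3 genes at an unadjusted p below 0.05 against 41.5% of all genes and a median of -0.07 (11.3% of all genes lower, 7.44% higher). *Snrnp70* again had both knockout libraries below WT, 338 and 309 against 410 and 401 (-0.33, SE 0.11, adjusted p = 0.0277), and so did *Snrpd2*, 53.1 and 43.9 against 63 and 62.3 (-0.37, adjusted p = 0.0556). *Snrpf* did not: its knockout libraries stood at 21.1 and 26.6 around the WT values of 25.1 and 22.7 (-0.01, interval -0.43 to 0.41). In this experiment the 2C-like list summed to 76.3 and 69.6 CPM in KO against 5.02 and 4.94 in WT, and the mES cell markers to 4910 and 5070 against 5770 and 5580. The difference between the experiments was tested and no member passed (0 of 10 in limma, edgeR and DESeq2, 0 at an unadjusted p below 0.05 against 6.21% of all genes, of which 0% were called lower and 0% higher), with 0.55 for *Snrpf* (adjusted p = 0.813) as the highest value.

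**Figure D3:**
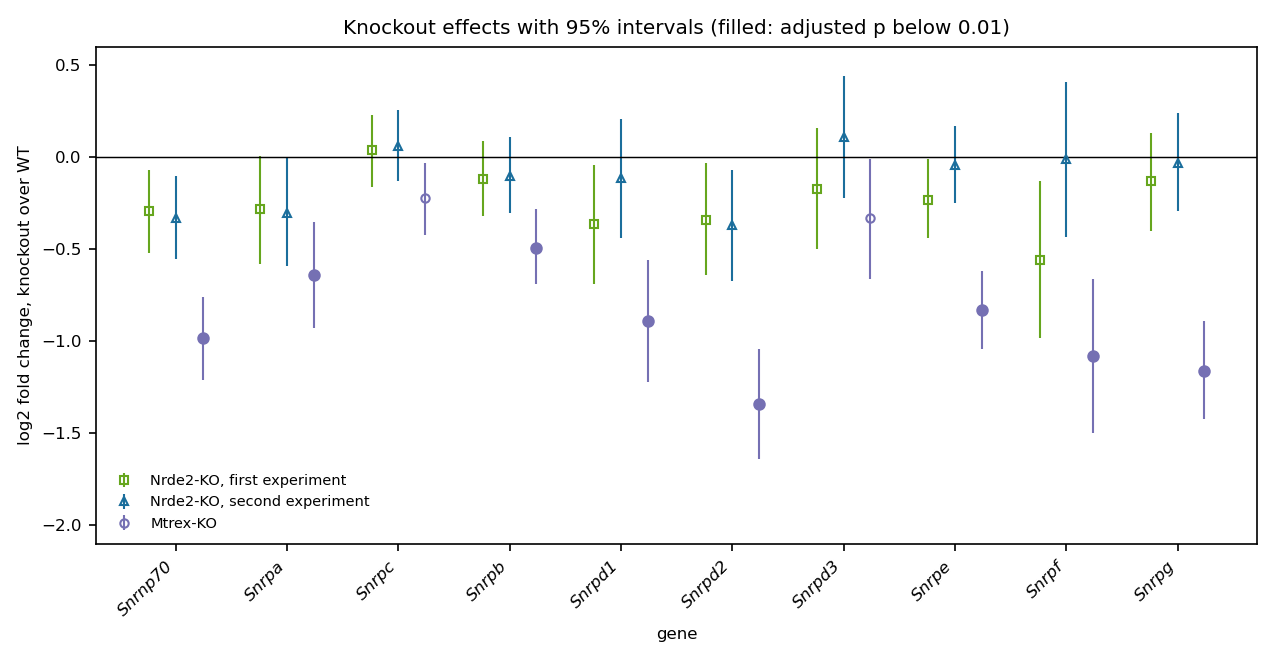
Log2 fold change of the 10 genes against their own WT libraries (y axis) in both *Nrde2*-KO experiments and in *Mtrex*-KO, with 2 libraries a group. The 95% intervals are from limma, with the spread pooled over all 20 libraries without CHX. Filled points have an adjusted p below 0.01, and the 8 filled points are all of *Mtrex*-KO, from -1.34 for *Snrpd2* to -0.49 for *Snrpb*.

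The effects of the 2 knockouts were compared directly. The *Mtrex*-KO effect was below the *Nrde2*-KO effect of the first experiment for 4 genes (14.1% of all genes tested were lower and 17.4% higher): *Snrpg* by -1.02 (SE 0.18, adjusted p = 0.000171), *Snrpd2* by -1 (SE 0.2, adjusted p = 0.000651), *Snrnp70* by -0.69 (SE 0.15, adjusted p = 0.00124) and *Snrpe* by -0.61 (SE 0.14, adjusted p = 0.00223). The other 6 differences lay between -0.53 and -0.17 and did not pass. The call for *Snrpe* was lost without the first *Nrde2*-WT library (-0.56, adjusted p = 0.013), without the second *Nrde2*-KO library (adjusted p = 0.014) or without the first *Mtrex*-WT library (adjusted p = 0.011).

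The 2 mutants of NRDE2 share their WT libraries with *Nrde2*-KO, so their values are given side by side only. In *Nrde2*d200 cells 0 of 10 genes passed (limma, edgeR and DESeq2; 4.27% of all genes lower, 3.22% higher), 1 had an unadjusted p below 0.05 (30.1% of all genes) and the median was -0.2. That gene was *Snrpe*, with 83.6 and 71.8 normalized CPM against 89.3 and 94.7 in *Nrde2*-WT (-0.25, adjusted p = 0.106). In *Nrde2*-D174R cells 0 of 10 passed by the same 3 tools (0.134% of all genes lower, 0.262% higher) and 2 had an unadjusted p below 0.05 (17.6% of all genes). These were *Snrpg*, with 21.8 and 25.1 against 28.8 and 35.3 (-0.44, adjusted p = 0.0831), and *Snrpc*, with 21.9 and 22.1 against 26.5 and 25 (-0.22). In both the mutant libraries lay below both WT libraries. *Snrpf*, the lowest in *Nrde2*-KO, stood at 22.3 and 18.9 in *Nrde2*d200 and at 20.8 and 21.3 in *Nrde2*-D174R.

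Degradation of CCDC174 gave no call among the members. CCDC174 is a spliceosome-associated protein. In *Ccdc174*-dTAG cells 0 of 10 genes passed in limma and edgeR (4.45% of all genes lower, 1.14% higher) and 2 had an unadjusted p below 0.05 (25.4% of all genes), while DESeq2 called 1. The values ran from -0.13 to 0.77 with a median of 0.08. The highest was *Snrpf*, with 17.1 and 13.8 normalized CPM without and 20.9 and 33.1 with dTAG-13, a log2 fold change of 0.77 (interval 0.34 to 1.19, adjusted p = 0.0185 in limma, 0.0012 in DESeq2). The 2 dTAG libraries differed more from each other than the WT libraries did, and without the first of them the value was 1.1 (adjusted p = 0.0028). The other gene at an unadjusted p below 0.05 was *Snrpd3*, with 96.4 and 75.2 against 94.5 and 122 (0.33), whose groups overlapped. Set against the *Nrde2*-KO effect of the first experiment, *Snrpf* differed by 1.32 (SE 0.28, adjusted p = 0.0115), and 0 of 10 genes passed (0.84% of all genes lower, 0.813% higher, 3 members and 22.2% of all genes at an unadjusted p below 0.05, 0 in edgeR and 1 in DESeq2).

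**Figure D4:**
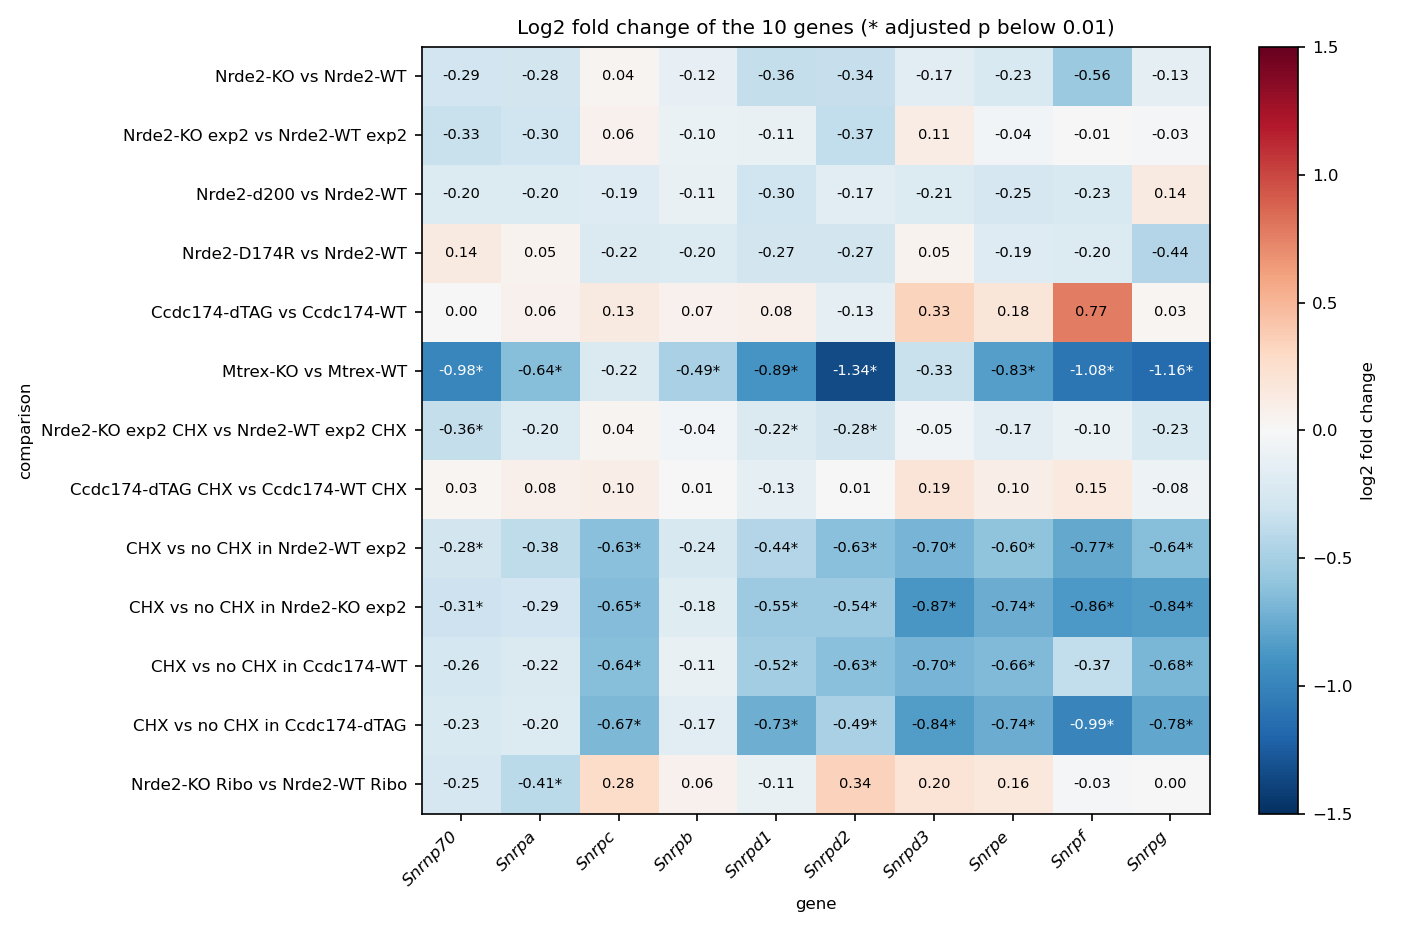
Log2 fold changes (colour) of the 10 genes (columns) in 13 comparisons (rows, where exp2 is the second *Nrde2* experiment), with an asterisk where the adjusted p is below 0.01. Asterisks stand in *Mtrex*-KO (8 genes, where 27.4% of all genes tested were lower) and the CHX rows (6 to 8 genes, 22.4 to 24.1%). They also stand in the CHX-treated *Nrde2*-KO comparison (3 genes, 15.4%) and Ribo-seq (1 gene, 14.2%).

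CHX lowered most of the 10 genes. With CHX, 8 genes fell in *Nrde2*-WT cells of the second experiment (22.4% of all genes lower), 8 in *Nrde2*-KO (22.5%), 6 in *Ccdc174*-WT (24.1%) and 7 in *Ccdc174*-dTAG (24.1%). None rose, where 25.1%, 26.3%, 25.4% and 26.3% of all genes did. All 10 values were below 0 in each of the 4 lines, with medians of -0.62, -0.6, -0.57 and -0.7. On CPM as deposited the median of all genes shifted by 0.2 to 0.24 with CHX, and 5, 6, 5 and 6 members fell. The shares of all genes called on those values are not given here. The summed mES cell markers were also lower with CHX, at 2850 to 3710 CPM, and their part in the result was not tested. Over all genes the response to CHX also moved with length. Its median was -0.16 to -0.13 over the 4 lines in the shortest quartile of transcript length, which holds 9 of the 10 members. In the longest quartile it was 0.05 to 0.11, and the part of length was not tested.

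*Snrpc*, which moved least in *Mtrex*-KO, was among those that fell in all 4 lines. It went from 29.9 and 27 to 18.6 and 18 normalized CPM in *Nrde2*-WT (-0.63, adjusted p = 7.59e-06) and from 29.7 and 29.4 to 18.6 and 19 in *Ccdc174*-WT (-0.64, adjusted p = 5.31e-06). The WT and CHX libraries were apart in both. The other U1-specific genes moved less: *Snrnp70* went from 410 and 401 to 325 and 341 (-0.28, adjusted p = 0.0088) in *Nrde2*-WT and had -0.26 (adjusted p = 0.0147) in *Ccdc174*-WT, and *Snrpa* lay between -0.38 and -0.2 over the 4 lines and passed in none. The *Snrnp70* call in *Nrde2*-WT was lost with each of the 4 libraries left out (adjusted p 0.021 to 0.065), with edgeR (adjusted p = 0.017), without the filter (adjusted p = 0.028) and on CPM as deposited (-0.07, adjusted p = 0.45).

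In the Sm ring, *Snrpd1*, *Snrpd2*, *Snrpd3*, *Snrpe* and *Snrpg* fell in all 4 lines. On CPM as deposited some of these calls were lost in limma. They were *Snrpd1* in *Nrde2*-WT (-0.23, adjusted p = 0.022) and *Snrpd2* in *Ccdc174*-WT (-0.4, adjusted p = 0.011), in *Nrde2*-KO (-0.36, adjusted p = 0.018) and in *Ccdc174*-dTAG (given below). *Snrpd3* went from 99 and 84.9 to 53.1 and 59.6 in *Nrde2*-WT (-0.7, adjusted p = 0.000257) and from 96.4 and 75.2 to 51.9 and 52.6 in *Ccdc174*-WT (-0.7). *Snrpg* went from 31.8 and 34 to 20.7 and 21.4 in *Nrde2*-WT (-0.64, adjusted p = 1.43e-05) and from 37.5 and 35.2 to 23.7 and 21.6 in *Ccdc174*-WT (-0.68, adjusted p = 7.06e-06). Both genes had every CHX library below every untreated library of the same line.

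*Snrpb* moved least of the ring, from 274 and 295 to 236 and 245 in *Nrde2*-WT (-0.24, adjusted p = 0.011), with -0.11 to -0.18 in the other lines and no call. *Snrpf* fell in *Nrde2*-WT (25.1 and 22.7 to 13.3 and 14.4, -0.77, adjusted p = 0.00209), in *Nrde2*-KO (-0.86) and in *Ccdc174*-dTAG (20.9 and 33.1 to 13.4 and 12.8, -0.99, adjusted p = 0.000267). In *Ccdc174*-WT it stood at 17.1 and 13.8 against 12.1 and 11.5 (-0.37, adjusted p = 0.0899). Leaving out the second *Ccdc174*-dTAG library brought the count there to 10, with *Snrnp70*, *Snrpa* and *Snrpb* added, and leaving out the first lost *Snrpd2* (-0.25, adjusted p = 0.047). The *Snrpd2* call in *Ccdc174*-dTAG was also lost without the first (adjusted p = 0.018) or second CHX library (adjusted p = 0.016), without the filter (adjusted p = 0.013), on CPM as deposited (-0.25, adjusted p = 0.084) and with only the compared libraries (adjusted p = 0.017). The *Snrpf* call in *Nrde2*-WT was lost without the first untreated or the first CHX library (adjusted p = 0.02 in each), without the filter (adjusted p = 0.011) and on CPM as deposited (adjusted p = 0.014). In *Nrde2*-KO each of the 4 libraries left out lost 1 or 2 calls, among *Snrnp70*, *Snrpd2* and *Snrpf* (adjusted p 0.014 to 0.046). The response to CHX was not shown to differ between KO and WT or between dTAG and WT: 0 of 10 differences passed in limma, edgeR and DESeq2, with 0 (14.8% of all genes) and 1 (9.67%) at an unadjusted p below 0.05. Over all genes 0.0991% were called lower and 0.416% higher for KO minus WT, and 0.0396% and 0.211% for dTAG minus WT. The member at an unadjusted p below 0.05 was *Snrpf*, with -0.62 for dTAG minus WT (adjusted p = 0.442).

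Between CHX-treated libraries, 3 members were lower in those labelled *Nrde2*-KO than in WT (15.4% of all genes lower, 12.5% higher). *Snrnp70* stood at 325 and 341 in WT and at 260 and 261 in KO (-0.36, SE 0.05, adjusted p = 0.000258). *Snrpd2* stood at 40.4 and 40.2 against 32.3 and 33.9 (-0.28, adjusted p = 0.0025), and *Snrpd1* at 92.9 and 92.9 against 79 and 80.6 (-0.22, adjusted p = 0.00455). In all 3 both KO libraries lay below both WT libraries.

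*Snrnp70* passed whichever of the 4 libraries was left out, *Snrpd1* lost its call with each of them left out, and *Snrpd2* was lost without the first or second WT library (adjusted p = 0.011 in each) or the first KO library (adjusted p = 0.029). The 2C-like list summed to 44.2 and 38.4 CPM in these KO libraries against 3.3 and 3.76 in WT, and its part was not tested. Between CHX-treated *Ccdc174*-dTAG and *Ccdc174*-WT libraries 0 of 10 members passed in limma, edgeR and DESeq2 (5.87% of all genes lower, 3.19% higher), 2 had an unadjusted p below 0.05 (35.4% of all genes), and the values ran from -0.13 for *Snrpd1* to 0.19 for *Snrpd3*.

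In ribosome footprints of *Nrde2*-KO cells 1 of the 10 members was called lower, *Snrpa*. This is near the share over all genes: 14.2% of all 13857 genes tested were lower and 11% higher. It stood at 69.5 and 66.6 normalized CPM in *Nrde2*-WT and at 53.4 and 49.2 in *Nrde2*-KO. Its footprint level differed by -0.41 on the log2 scale (SE 0.09, adjusted p = 0.00133). Both knockout libraries lay below WT. The call was lost without a filter on low values (adjusted p = 0.017), with DESeq2 (adjusted p = 0.023) and on CPM as deposited (-0.26, adjusted p = 0.22), where the median of all genes shifted by 0.15.

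*Snrnp70* had 226 and 242 footprint CPM in WT and 205 and 189 in KO (-0.25, adjusted p = 0.0148). *Snrpd2* went the other way, with 26.5 and 30.4 against 34.9 and 37.3 (0.34, adjusted p = 0.0183), and so did *Snrpd3*, with 84.9 and 86.3 against 101 and 95.9 (0.2, adjusted p = 0.0573), and *Snrpc*, with 29.2 and 33.5 against 40.3 and 35.8 (0.28, adjusted p = 0.0544). In all 4 the adjusted p missed the threshold. The unique share of 35-base coding windows was 100.0% for *Snrnp70* and *Snrpd3*, 29.1% for *Snrpc* and 17.2% for *Snrpd2*. The part of this share in these values was not tested. The remaining members lay between -0.11 (*Snrpd1*) and 0.16 (*Snrpe*), and the median of the 10 was 0.03. *Snrpg* could hardly be measured: 15 to 24 footprints per library gave 2.73 and 3.06 CPM in WT and 2.69 and 3.11 in KO (0, interval -0.62 to 0.62), and none of its 35-base coding windows is unique in the genome.

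Footprints and RNA of the first *Nrde2* experiment were then set against each other in 1 fit. The footprint effect minus the RNA effect was above 0 for 9 of the 10 genes with a median of 0.25, and 0 of 10 passed in limma (2.56% of all genes lower, 4.39% higher), with 5 at an unadjusted p below 0.05 against 32.2% of all genes. Over all genes this difference also moved with length: its median was 0.18 in the shortest quartile of transcript length, which holds 9 of the 10 members, and -0.09 in the longest, and the part of length was not tested. The highest was *Snrpd2* with 0.68 (SE 0.16, adjusted p = 0.0104). Its RNA stood at 50.8 and 58.1 against 39.3 and 47, and its footprints at 26.5 and 30.4 against 34.9 and 37.3. edgeR (adjusted p = 0.0079) and DESeq2 (adjusted p = 0.0046) placed it past the threshold, as the only member. Only 17.2% of the 35-base coding windows of *Snrpd2* are unique in the genome, and the part of this was not tested. *Snrpf* followed with 0.53 (adjusted p = 0.0652), *Snrpe* with 0.39 (adjusted p = 0.0438) and *Snrpd3* with 0.37 (adjusted p = 0.0724), while *Snrpa* was the member below 0, at -0.12.

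**Figure D5:**
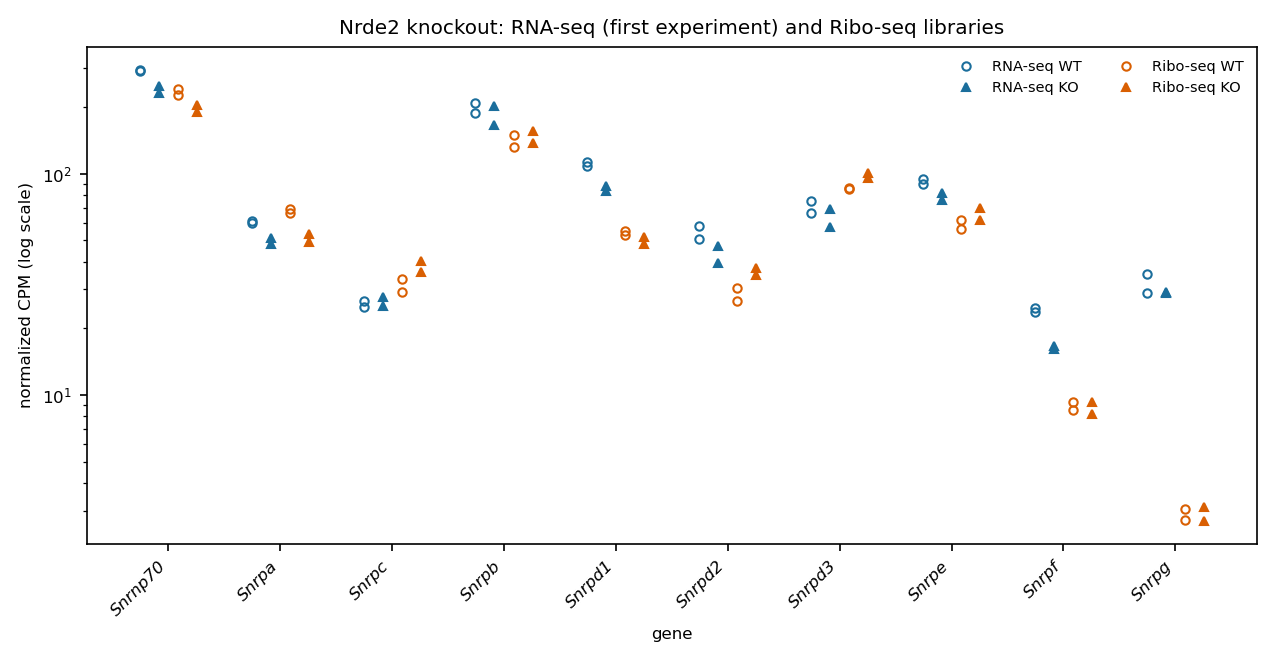
Normalized CPM (log axis) of the 10 genes in RNA-seq and Ribo-seq libraries of *Nrde2*-WT and *Nrde2*-KO, with 1 point per library. Footprints of *Snrpd2* are higher in both KO libraries (34.9 and 37.3) than in WT (26.5 and 30.4), while its RNA is lower (39.3 and 47 against 50.8 and 58.1). Only 17.2% of the 35-base coding windows of *Snrpd2* are unique in the genome.

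Per kb of coding sequence, the Sm genes also differed in footprints. In *Nrde2*-WT *Snrpd3* (226 ± 2.66 CPM per kb, SD, n = 2), *Snrpe* (214 ± 14.1) and *Snrpb* (203 ± 17.7) were highest. *Snrpe* did not differ from *Snrpb* beyond the spread. Both *Snrpd3* libraries lay above both libraries of *Snrpb* and, narrowly, of *Snrpe*. *Snrpf* (34.7) and *Snrpg* (12.7) were lowest. The unique share of 35-base coding windows was 100.0% for *Snrpd3*, 25.2% for *Snrpe*, 93.5% for *Snrpb*, 17.4% for *Snrpf* and 0.0% for *Snrpg*, and its part in this order was not tested. An annotated copy of *Snrpe* took 4.44 CPM of uniquely placed footprints on average, against 62.5 for the gene.

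Other genes were taken from lists of 74 genes, 73 of them tested. The lists hold U1-associated proteins and snRNP assembly and transport factors, but also LSm, U2, U4/U6.U5 and minor spliceosome genes. The pooled counts below are therefore not of U1 alone. In *Mtrex*-KO 30 of the 73 fell (41.1%) and 9 rose (12.3%), where 27.4% and 28.5% of all genes tested did. The falls were spread over the lists: 4 of 8 genes of the SMN complex (*Gemin6*, -0.67), 2 of 4 of the Sm methylation machinery (*Prmt7*, -1.29), 4 of 8 LSm genes, which form the related ring on U6 and on mRNA (*Lsm4*, -0.96), 5 of 12 of the U2 snRNP (*Snrpa1*, the U2 A′ gene, -1.73), 7 of 17 of the U4/U6.U5 particle (*Snrnp40*, -1.09) and 4 of 8 of the minor spliceosome (*Snrnp25*, -1.07). *Smn1* itself rose by 0.5, and so did *Luc7l2*, of the proteins that help U1 at the splice site, and *Prpf8*, of the U5 core, by 0.55. *Prpf40b*, a U1-associated protein, fell by 1.24.

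In *Nrde2*-KO cells 13 of the 73 fell (17.8%) and 0 rose in limma, against 10.6% and 7.64% of all genes. Of the 13, 7 are in the U4/U6.U5 list (*Txnl4a*, -0.51), and no LSm gene is among them. *Prpf40b* fell by 0.91 and *Snrpa1* by 0.74. In footprints 28 of the 73 fell (38.4%) and 5 rose, where 14.2% and 11% of all genes did, and the falls held 5 of 9 U1 auxiliary genes (*Prpf40b*, -1.19), 5 of 8 of the SMN complex (*Gemin5*, -0.75), 3 of 4 of Sm methylation (*Wdr77*, -0.79) and 8 of 17 of U4/U6.U5 (*Sart1*, -0.88). In *Nrde2*-WT cells of the second experiment CHX lowered 34 of the 73 (46.6%) and raised 9, where 22.4% and 25.1% of all genes were called lower and higher, among the falls all 4 Sm methylation genes (*Wdr77*, -0.46) and 5 of 8 LSm genes (*Lsm6*, -0.94).

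*Snrpn*, the close paralog of *Snrpb* that also encodes a ring protein, had its own course. It stood at 38.9 and 38.8 normalized CPM in *Nrde2*-WT and fell to 27.4 and 27 in *Nrde2*d200 (-0.51, adjusted p = 0.007), with 29.2 and 28.5 in *Nrde2*-KO (-0.43, adjusted p = 0.011). In *Mtrex*-KO it stood at 30.8 and 37.6 against 24.8 and 31.7 in WT (0.28, adjusted p = 0.046), with overlapping groups, while *Snrpb* fell there.

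The genes of the U1 RNA share much of their sequence, and only uniquely placed reads were counted. *Rnu1a1* had 11 and 10 reads in *Mtrex*-WT and 81 and 54 in *Mtrex*-KO (0.299 and 0.283 against 2.81 and 1.86 normalized CPM), which is 2.23 on the log2 scale. It passed the filter of 0.5 CPM only through the *Mtrex*-KO libraries, so no p is given. As deposited it stood at 1.92 and 1.55 CPM there and at 0.677 or less in the other libraries without CHX. Both *Mtrex*-KO libraries lay above both WT libraries, and the other 3 U1 genes had 0 to 2 reads per library. Reads at such a locus can come from mature U1 or from longer RNA, which the counts do not tell apart.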

How the data were processed

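Total RNA of mES cells was depleted of ribosomal RNA and sequenced strand-specifically, and ribosome footprints were sequenced separately. The authors used STAR for alignment to mm10 (2.7.0a and 2.7.3a per the submitters' processing notes), counted uniquely mapping reads per GENCODE gene with featureCounts, and deposited CPM, which relate the reads of a gene to the library total. The deposited CPM are whole multiples of 1 read: 100% of values were whole within 0.1 reads after scaling, so counts could be recovered for the count tests. Cross-linking libraries were not analysed here. Gene names came from GENCODE M21 (55154 of 55335 identifiers), an earlier release than the one the authors used.

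Each library's CPM were scaled by its median-of-ratios factor and tested as log2(CPM + 0.25) with limma 3.58.1 (R 4.3.3, trend, Benjamini-Hochberg) among genes averaging 0.5 CPM or more, so fold changes of low genes are understated. Fits used all 20 libraries without CHX (14889 genes), 8 with CHX (15476), 16 for the CHX response (15133), 4 of Ribo-seq (13857), and 8 of both assays (12788), giving 19 comparisons. A gene passed at an adjusted p below 0.01. Intervals cover 95% with limma's moderated error. edgeR 4.0.16 and DESeq2 1.42.0 on recovered counts, other pseudocounts (0.1 and 1), filters, factors, a replicate block and fits without each library were alternatives. The added alternative, a factor over protein-coding genes only, was chosen after seeing the data. Scripts were tested on simulated counts. The text names all 10 members, the targeted genes, *Snrpn*, the gene with the largest rise or fall of each fixed list, and the 5 genes most like the members. *Rnu1a1* is such a gene. Members and lists were chosen with earlier results of these data known. Python 3.11.15, pandas 2.3.3 and matplotlib 3.10.9 made the summaries and plots.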

Additional observations from a re-analysis of the deposited data

Results flagged for a closer look

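Differences between effects that passed the test are given here as values. The *Mtrex*-KO effect minus the *Nrde2*-KO effect was -0.69 for *Snrnp70*, -1 for *Snrpd2*, -0.61 for *Snrpe* and -1.02 for *Snrpg* on the log2 scale, as described above. The same difference was 0.7 for *Snrpn*, in the opposite direction to the members. For *Rnu1a1* it was 1.68, also opposite, with no p given because the gene passed the filter only through *Mtrex*-KO. For *Prpf40b* the response to CHX was higher by 0.9 in *Nrde2*-KO than in *Nrde2*-WT (SE 0.16, adjusted p = 0.0079).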

How the results depend on the processing

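Of 190 values (10 genes in 19 comparisons), 45 were called, and in 3080 alternative values no called value changed sign; 30 kept their call in every alternative and 15 lost it in at least 1. Uncalled values changed sign 83 times, between -0.21 and 0.16. Counts of members past the threshold that moved by more than 1.5 times, or from or to 0, were as follows, with those of *Mtrex*-KO and CHX also given where members were lost. On CPM as deposited 8 passed for *Mtrex*-KO minus *Nrde2*-KO, 5 for CHX in *Nrde2*-WT and 0 in Ribo-seq. In Ribo-seq 0 passed without a filter, 2 with TMM and 0 with DESeq2. For footprint minus RNA effect, 1 passed with a pseudocount of 1, with a minimum of 1 CPM, with edgeR and with DESeq2, and 0 with the second *Nrde2* experiment. With DESeq2 1 passed for *Ccdc174*-dTAG and 1 for *Ccdc174*-dTAG minus *Nrde2*-KO. With only the compared libraries, which is the same fit for the Ribo-seq comparisons, 3 passed in *Nrde2*-KO, 1 for *Ccdc174*-dTAG minus *Nrde2*-KO, 6 in place of 8 for *Mtrex*-KO, 2 in place of 3 for CHX-treated *Nrde2*-KO and 6 in place of 7 for CHX in *Ccdc174*-dTAG. Leaving out 1 library gave 0 to 1 for *Ccdc174*-dTAG, 0 to 1 for *Ccdc174*-dTAG minus *Nrde2*-KO, 1 to 2 for CHX-treated *Nrde2*-KO, 0 to 2 in Ribo-seq, 0 to 1 for footprint minus RNA, 3 to 5 for *Mtrex*-KO minus *Nrde2*-KO, 7 to 9 for *Mtrex*-KO, 6 to 7 for CHX in *Nrde2*-WT and in *Nrde2*-KO, 6 for CHX in *Ccdc174*-WT and 6 to 10 for CHX in *Ccdc174*-dTAG. The ratio of the highest to the lowest level per kb was 25.6, and 7.54 with the longest transcript. The cause of these changes was not tested, and the shares of all genes called under these settings are not given here.

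Replicate numbers are shared between groups, but nothing says what they stand for, and with 2 a group the pairing could not be established: deviations of same-numbered libraries correlated at -0.05 to 0.34 in the first *Nrde2* experiment, 0.45 for *Mtrex*, 0.2 to 0.44 for *Ccdc174*, 0.13 to 0.44 in the second *Nrde2* experiment and -0.03 in Ribo-seq. With the replicate number as a block 1 passed for *Ccdc174*-dTAG (*Snrpf*), 1 for the second *Nrde2*-KO (*Snrnp70*), 1 for *Ccdc174*-dTAG minus *Nrde2*-KO, 5 for CHX-treated *Nrde2*-KO, 1 for CHX-treated *Ccdc174*-dTAG, 3 in Ribo-seq and 1 for footprint minus RNA. The shares of all genes called with the block are not given here.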

Other observations

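Over the 28 RNA-seq libraries, the mean of the 10 members on the log2 scale was most like *Tcp1*, a subunit of the cytosolic chaperonin (Pearson r = 0.977 across libraries, among 15217 genes), *Eif3h*, a subunit of translation initiation factor 3 (0.966), *Rpl14*, a ribosomal protein gene (0.966), *Sae1*, of the SUMO-activating enzyme (0.962), and *Mrpl13*, a mitochondrial ribosomal protein gene (0.962). These libraries share WT groups, treatments and scaling, so the values are a description. Among the members, *Snrpd1* followed the mean of the other 9 most closely (r = 0.94) and *Snrpb* least (0.53), with *Snrnp70* at 0.71 and *Snrpe* at 0.73.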
